A study of Mus musculus with 64 samples.

Results

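The 8 genes described here are the interleukin-1 (IL-1) family ligand genes Il1a, Il1b, Il18 and Il36g, the antagonist genes Il1rn, Il18bp and Il1r2, and the accessory receptor gene Il1rap. They were chosen by name, and all 8 were found among the 55487 genes counted. RNA had been sequenced from murine bone marrow-derived macrophages (BMMs) in 64 libraries that fall into 16 groups of 4. BMMs were exposed for 6 h to the vehicle DMSO (0.01%), to 1 µM benzo[a]pyrene (BaP) or to 10 µM indole-3-carbinol (I3C), both ligands of the aryl hydrocarbon receptor (AhR). BMMs of all 3 exposures were then activated with heat-killed Salmonella Enteritidis (hk S.E.), and a part of the DMSO cells was left unactivated, and RNA was taken at 3 h or at 20 h. Ahr+/+ BMMs came from female C57BL/6JRj mice. Ahr-/- BMMs came from an AhR knockout line on C57BL/6 that had been crossed back in-house to the Ahr+/+ strain. Mice were 8 to 12 weeks old, and the sex of the Ahr-/- mice is not given in the sources used here. The knockout is carried by all cells of the animal, so the macrophages developed without AhR as well as being activated without it. The study's methods give bone marrow of 4 mice per genotype, but the labels do not tie libraries to mice, so p-values measure the spread between these libraries, which may be partly technical.

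IL-1α and IL-1β, the products of Il1a and Il1b, signal through the IL-1 receptor, which needs the accessory chain encoded by Il1rap. The receptor antagonist encoded by Il1rn occupies the same receptor without signalling, and the product of Il1r2 is a decoy receptor that binds IL-1 without passing a signal on. IL-18 is held in check by the soluble binding protein encoded by Il18bp, while IL-36γ, the product of Il36g, acts on a receptor of its own that shares the accessory chain. IL-1β and IL-18 are made as precursors that are cut by caspase-1 in the inflammasome, so the RNA level of either gene is not a measure of released cytokine.

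Libraries held 12152496 to 50644601 counts on genes, apart from 1 library of 233047331, which is replicate 4 of the unactivated Ahr+/+ group at 20 h. Summed macrophage markers lay between 18680 and 35744 CPM (counts scaled to library size, here called the level) in all libraries, with 9 of 9 markers tested. Single macrophage markers moved with activation and with genotype, as given below. Summed markers of T and NK cells stayed at or under 0.543 CPM and those of mast cells and basophils at or under 0.371 CPM. Counts of Ahr itself were higher, not lower, in the libraries labelled Ahr-/-, with a log2 fold change of 1.04 ± 0.21 (SE) between the unactivated groups at 3 h and of 0.93 ± 0.19 with hk S.E. at 20 h. Those counts are summed over the exons of the gene and do not show whether a part of it is missing, so they do not check the genotype. Ahrr, a known AhR target gene, rose with BaP in Ahr+/+ BMMs at 3 h by 3.36 ± 0.26 on the log2 scale, and its value in the libraries labelled Ahr-/- was -0.33. Ahr-/- stands below for the libraries so labelled. The first digits of the library identifiers form 4 series, and with hk S.E. at 20 h all Ahr+/+ libraries belong to one series and all Ahr-/- libraries to another.

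Activation raised the ligand genes Il1a and Il1b more than any other of the 8 genes, by over 8 on the log2 scale in both genotypes at both times. Il1a is on chr2:129299610-129309972 (GRCm38, minus strand). In unactivated Ahr+/+ BMMs at 3 h its level was 1.02, 0.703, 0.69 and 1.71 CPM in the 4 libraries. With hk S.E. the level was 1871, 1962, 1847 and 1539 CPM. Every activated library lay above every unactivated one, with a log2 fold change of 10.82 ± 0.32 (SE, adjusted p = 5.59e-35, edgeR's quasi-likelihood test). Il1b, on chr2:129364570-129371139 (minus strand), stood at 3.9, 7.08, 5.52 and 5.69 CPM without hk S.E. and at 4080, 4170, 4488 and 3771 CPM with it, a log2 fold change of 9.52 ± 0.38 (adjusted p = 3.97e-29). On the scale of CPM per kilobase of exon the mean level in activated Ahr+/+ BMMs at 3 h was 2164 for Il1b and 914 for Il1a, so Il1b was the more abundant of the pair per length. At 20 h the log2 fold changes were 11.34 ± 0.34 for Il1a and 8.21 ± 0.36 for Il1b, while Ahr-/- BMMs gave 11.28 and 9.39 early and 12.15 and 9.26 late.

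The 100 bases before the RefSeq start of Il1a and of Il1b (GRCm38.p6, minus strand, 5′ to 3′) are shown because these genes moved together, and capitals mark letters of searched motifs on either strand. Il1a lies at chr2:129309973-129310072 and Il1b at chr2:129371140-129371239.
Il1a: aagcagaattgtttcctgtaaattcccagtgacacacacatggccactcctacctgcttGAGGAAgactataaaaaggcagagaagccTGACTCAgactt
Il1b: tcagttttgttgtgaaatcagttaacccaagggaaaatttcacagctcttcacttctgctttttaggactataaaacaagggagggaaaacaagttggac
In the Il1a stretch GAGGAA, the core letters bound by the macrophage factor PU.1, occurs once, and so does an AP-1 site, TGANTCA. Over all 32841 windows of 250 bases before a RefSeq start, GAGGAA was present on either strand in 23.3% and TGANTCA in 6.75%. A 10-base consensus of the NF-κB site, present in 0.356% of all windows, was found in no window of the 8 genes. The Il1b stretch holds none of the searched letters, which says only that they are not in that window.

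Il18, on chr9:50554827-50581840 (plus strand), was present in unactivated BMMs and rose for a short time. Its level in Ahr+/+ BMMs at 3 h went from 5.26, 6.55, 4.39 and 5.93 CPM to 55.9, 58.6, 47.0 and 50.4 CPM with hk S.E., a log2 fold change of 3.25 ± 0.18 (adjusted p = 3.96e-23). At 20 h the values were 6.17, 7.7, 6.28 and 6.05 CPM without and 11.8, 12.5, 9.93 and 10.2 CPM with hk S.E. The groups still did not overlap, yet the log2 fold change was down to 0.76 ± 0.17 (adjusted p = 7.06e-05). In Ahr-/- BMMs at 20 h the activated and unactivated groups overlapped, with a log2 fold change of 0.32 ± 0.17 (adjusted p = 0.0995). Il36g, on chr2:24186476-24193568 (plus strand), was the least abundant of the ligand genes, with 6 to 21 counts per unactivated Ahr+/+ library at 3 h. Its level there was 0.487, 0.427, 1.04 and 0.285 CPM and with hk S.E. 9.35, 9.73, 11.3 and 7.05 CPM, a log2 fold change of 4.10 ± 0.31 (adjusted p = 1.33e-17). At 20 h unactivated libraries of Ahr+/+ BMMs held 0 to 22 counts of Il36g, the highest of them in the deepest library, against 5.03, 5.53, 3.83 and 3.26 CPM with hk S.E.

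Among the antagonist genes, Il1rn was expressed before activation and rose further. Il1rn lies on chr2:24336853-24351494 (plus strand), in the same cluster of family genes as Il36g. Its level in Ahr+/+ BMMs at 3 h was 40.3, 69.4, 32.5 and 57.2 CPM without hk S.E. and 1096, 1481, 668 and 982 CPM with it. The log2 fold change was 4.40 ± 0.29 (adjusted p = 9.73e-20), and at 20 h it was 4.98 ± 0.30. Il18bp, on chr7:102014885-102018690 (minus strand), rose from 11.8, 13.2, 11.9 and 13.2 CPM to 68.8, 71.4, 51.2 and 66.6 CPM at 3 h, a log2 fold change of 2.36 ± 0.21 (adjusted p = 5.83e-15), and at 20 h by 2.71 ± 0.21. Il1r2, on chr1:40074079-40125231 (plus strand), stayed at a low level, with 0.292, 0.427, 0.444 and 0.427 CPM without hk S.E. at 3 h and 0.703, 0.622, 1.32 and 0.647 CPM with it. That difference did not pass the threshold of 0.01 (log2 fold change 1.02 ± 0.46, adjusted p = 0.0475), although the groups did not overlap. At 20 h Il1r2 rose by 3.01 ± 0.47 on the log2 scale (adjusted p = 1.27e-07). Per kilobase of exon, the mean in activated Ahr+/+ BMMs at 3 h was 191 CPM for Il1rn, 21.3 for Il18bp and 0.431 for Il1r2.

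The stretches before the starts of Il1rn and Il1r2 (GRCm38.p6, plus strand, 5′ to 3′) are shown because both genes were lower in Ahr-/- BMMs, as described below, and both hold the core letters of the AhR response element, GCGTG, which read CACGC on the strand printed. The Il1rn stretch lies at chr2:24336700-24336799, from 160 to 61 bases before the first of 3 RefSeq starts. That of Il1r2 lies at chr1:40086045-40086074, from 48 to 19 bases before its RefSeq start and within an annotated exon, since GENCODE starts the gene further upstream.
Il1rn: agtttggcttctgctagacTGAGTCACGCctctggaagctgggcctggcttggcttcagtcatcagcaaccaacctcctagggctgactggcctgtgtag
Il1r2: tacgaCACGCattgcttggccCACGCagat
Capitals mark the motif letters, and in Il1rn an AP-1 site (TGANTCA) runs into the AhR core with a shared CA. GCGTG was present on either strand in 28.2% of all 32841 windows. It was in 3 of the 10 windows of the 8 genes, those of Il1rn, Il1r2 and Il1rap. With hk S.E. at 20 h Il1rap was higher in Ahr-/- BMMs, and Il18bp, which was lower there, held no match. The letters of the RelB-type AhR element, GGGTGCAT, and of an interferon-stimulated response element (ISRE) were in no window of the 8 genes and in 0.463% and 2.98% of all windows. A match is a description of the letters, and binding was not measured.

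Il1rap, on chr16:26581704-26730117 (plus strand), rose with hk S.E. in both genotypes at both times. In Ahr+/+ BMMs at 3 h it rose from 9.2, 11.8, 8.29 and 11.1 CPM to 25.4, 30.8, 26.9 and 27.2 CPM, a log2 fold change of 1.44 ± 0.16 (adjusted p = 2e-11), and at 20 h by 0.60 ± 0.16 (adjusted p = 0.000714). Its long transcripts give it a mean of 2.43 CPM per kilobase in activated Ahr+/+ BMMs at 3 h, under the per-length level of all ligand genes.

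**Figure D1:**
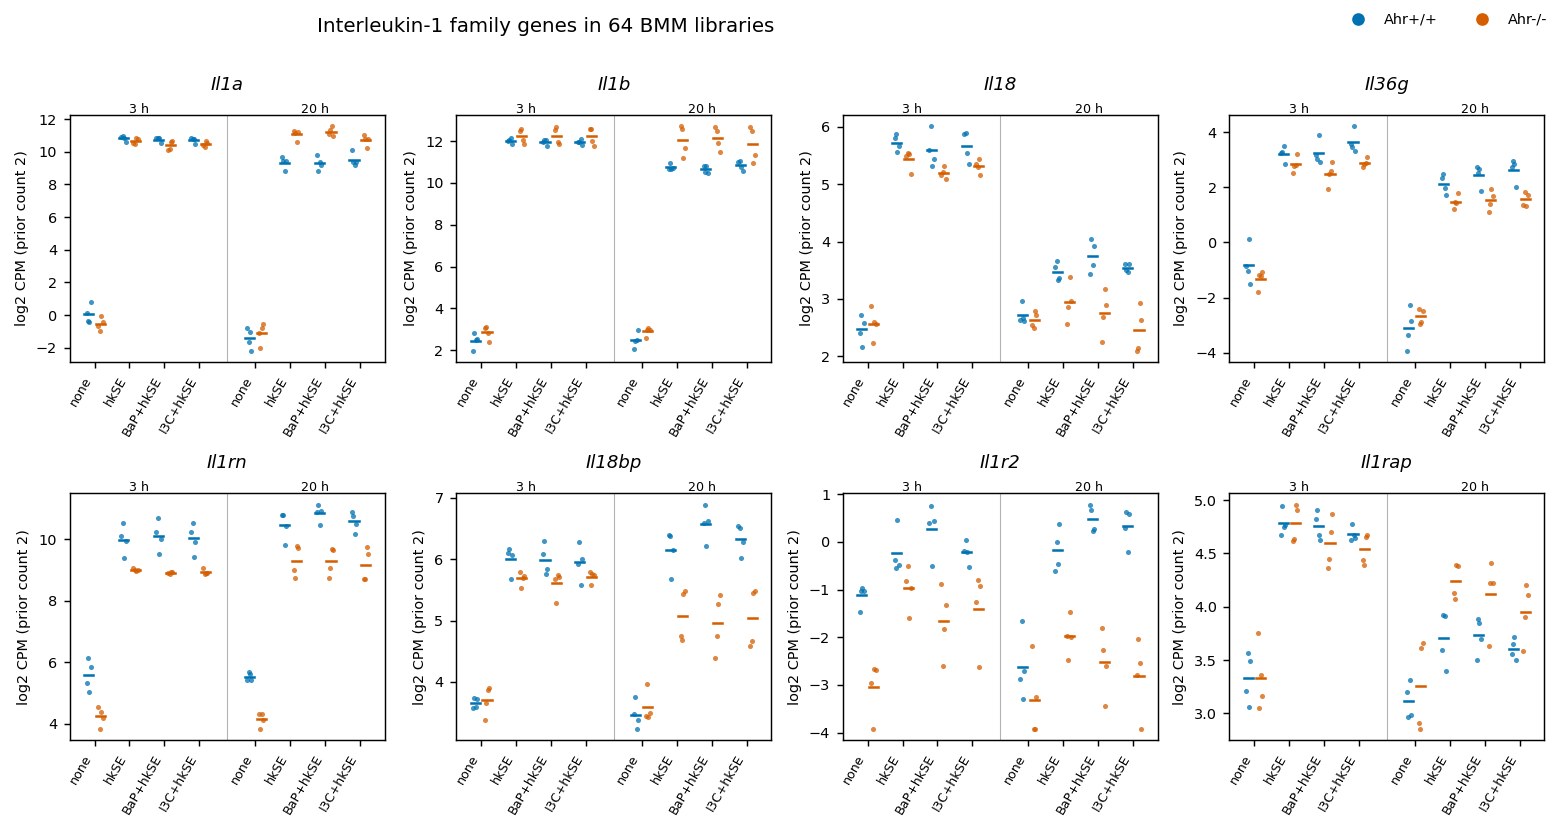
Level of each of the 8 genes as log2 CPM (prior count of 2) in all 64 libraries, at 3 h on the left and 20 h on the right of each panel; none is unactivated, hkSE is activated with hk S.E., points are libraries and bars are group means of 4. Every activated library holds more Il1a and Il1b than every unactivated one, and Il1rn is lower in Ahr-/- than in Ahr+/+ BMMs without overlap in all 8 conditions.

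Counted together, 7 of the 8 genes passed the threshold for activation in Ahr+/+ BMMs at 3 h and 8 at 20 h, where 56.6% and 58.6% of the 14537 genes tested passed. In Ahr-/- BMMs 8 passed at 3 h and 6 at 20 h, beside 57.3% and 54.3% of all genes. All of these calls were increases, and increases made up 24.2%, 29.9%, 25.5% and 28.3% of the genes tested in the same order. The median log2 fold change of the 8 genes was 3.67, 4.00, 3.63 and 3.34, against medians between -0.10 and 0.02 over all genes. Summed neutrophil markers moved with activation at 3 h, from 15.8 to 44.3 CPM in unactivated and from 112 to 261 CPM in activated Ahr+/+ libraries, and their part in the increases was not tested. Of 10 neutrophil markers 6 were tested and 5 of these rose at 3 h in each genotype. S100a8, S100a9, Ngp, Camp and Ltf were at 0 in none of the 64 libraries, while Ly6g, Elane and Mpo had a median of 0. Of 9 macrophage markers 3 rose and 3 fell in Ahr+/+ BMMs at 3 h, and 3 rose and 5 fell at 20 h. In Ahr-/- BMMs 3 rose and 3 fell at 3 h, and 2 rose and 5 fell at 20 h.

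In activated Ahr+/+ BMMs all 4 ligand genes fell between 3 h and 20 h, while none of the 3 antagonist genes passed the test. From 3 h to 20 h Il1a fell to 813, 697, 455 and 679 CPM, Il1b to 1610, 1988, 1635 and 1681 CPM and Il18 to the values given above. The log2 fold changes were -1.45 ± 0.20 for Il1a, -1.26 ± 0.26 for Il1b, -2.26 ± 0.17 for Il18 and -1.09 ± 0.24 for Il36g. Il1rap fell too, by -1.07 ± 0.16. Il1rn stood at 1762, 1793, 903 and 1371 CPM at 20 h, a log2 fold change of 0.46 ± 0.25 (adjusted p = 0.0994) in which the groups overlapped, and Il18bp gave 0.16 ± 0.19 (adjusted p = 0.469) and Il1r2 0.09 ± 0.42 (adjusted p = 0.856). Thus 5 of the 8 genes passed where 59.5% of all genes did, all of them lower at 20 h, as were 26.4% of all genes.

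In activated Ahr-/- BMMs 3 genes were lower at 20 h than at 3 h, where 56.0% of all genes passed and 24.3% were lower. These were Il18 with -2.48 ± 0.17, Il36g with -1.37 ± 0.25 and Il1rap with -0.54 ± 0.15 on the log2 scale. Il1a, at 1479, 1421, 1867 and 1733 CPM at 3 h and 2456, 2292, 1540 and 2390 CPM at 20 h, gave 0.42 ± 0.20 (adjusted p = 0.065), and the groups overlapped. Il1b gave -0.09 ± 0.26 (adjusted p = 0.768). Among the antagonist genes the mean of Il1rn went from 515 to 663 CPM and that of Il18bp from 51.6 to 34.9 CPM. The mean of Il1r2 went from 0.463 to 0.195 CPM, and none of these antagonist genes passed. Il18bp did pass without replicate 2 at 3 h (-0.66) or without replicate 3 (-0.67) or 4 (-0.70) at 20 h. The Il1rap call was lost without replicate 2 at 20 h (-0.48). All Ahr-/- libraries at 20 h belong to 1 identifier series and all but 1 of the activated ones at 3 h to another, so time and series cannot be told apart here, and with the series in the model Il36g gave -0.33 (adjusted p = 0.614).

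Without activation, Il1a, Il36g and Il1r2 were lower at 20 h than at 3 h in Ahr+/+ BMMs, by -1.98 ± 0.39, -2.91 ± 0.45 and -1.90 ± 0.51 on the log2 scale, beside 6.07% of all genes. These 3 genes had the lowest counts of the 8, and without the deepest library the Il1a value was -1.32 and did not pass. The Il1r2 call was lost in 7 of 8 fits that left out a library, all but that without replicate 2 at 20 h, with values from -2.01 to -1.67, the latter without the deepest library (adjusted p = 0.0758). In unactivated Ahr-/- BMMs edgeR's test passed 0 of the 8 genes, where 6.98% of all genes passed and 1 of the 8, Il36g, had an unadjusted p under 0.05. DESeq2 passed that 1 gene. The size of the hk S.E. effect itself changed with time in 5 of the 8 genes in Ahr+/+ BMMs, beside 47.8% of all genes. It was smaller at 20 h for Il1b (-1.31 ± 0.39), Il18 (-2.49 ± 0.24) and Il1rap (-0.84 ± 0.22) and larger for Il36g (1.82 ± 0.51) and Il1r2 (1.99 ± 0.65), both of which had fallen in the unactivated cells. On the authors' log2 values Il36g turned to -0.22 (adjusted p = 0.419 by limma). Leaving out 1 library ended the Il1r2 call in 11 of 16 fits, and leaving out the deepest library ended those of Il1b (-1.09), Il36g (2.07) and Il1r2 (1.76). The Il1b call was also lost without replicate 1 (-1.17) and the Il36g call without replicate 3 (adjusted p = 0.0195) of the unactivated Ahr+/+ group at 3 h. In Ahr-/- BMMs it changed for Il18 alone (-2.55 ± 0.24), beside 44.7% of all genes.

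Between the genotypes, Il1rn was the only one of the 8 genes that passed the test in all 4 conditions after DMSO. In unactivated BMMs at 3 h Ahr-/- libraries held 23.0, 14.1, 20.5 and 18.3 CPM of Il1rn, all below the Ahr+/+ libraries given above. The log2 fold change was -1.39 ± 0.26, or 2.63-fold lower (adjusted p = 0.000847), and in a fit that used the 2 groups alone it was -1.37 (adjusted p = 0.024). At 20 h without hk S.E. Ahr-/- libraries held 20.0, 14.2, 19.9 and 17.2 CPM and Ahr+/+ libraries 42.3, 51.2, 48.5 and 42.2 CPM, a log2 fold change of -1.36 ± 0.26 (adjusted p = 0.00137). With hk S.E. at 3 h the Ahr-/- values were 540, 507, 497 and 516 CPM and the log2 fold change -1.04 ± 0.25 (adjusted p = 0.00671). Again no library overlapped, and the Ahr-/- values lay close together while the Ahr+/+ values spread from 668 to 1481 CPM. In bulk samples fewer cells expressing a gene and less RNA per cell cannot be told apart.

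Of the 8 genes, 2 passed the genotype test in unactivated BMMs at 3 h, 1 in unactivated BMMs at 20 h and 1 with hk S.E. at 3 h, while 1.21%, 0.702% and 2.83% of all genes did. The other gene that passed in unactivated BMMs at 3 h was Il1r2, at 0.0634, 0, 0.0913 and 0.0904 CPM in Ahr-/- libraries, which is 0 to 3 counts each. Its log2 fold change was -2.62 ± 0.62 (adjusted p = 0.00859), and the call was lost when any 1 of the 8 libraries was left out, with values from -2.90 to -2.25. The Il1rn call with hk S.E. at 3 h was lost in 7 of 8 such fits, with values from -1.21 to -0.82, and those in unactivated BMMs in 2 of 8 at each time. These were the fits without replicate 2 of Ahr+/+ BMMs (-1.19) and replicate 2 of Ahr-/- BMMs (-1.28) at 3 h, and without replicate 2 (-1.27) and replicate 4 (-1.34) of Ahr-/- BMMs at 20 h.

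Where an identifier series held both genotypes, Il1rn could be compared within it. At 3 h without hk S.E. the 3 Ahr-/- libraries of series 0015 held 14.1 to 20.5 CPM and the 2 Ahr+/+ libraries 32.5 to 40.3 CPM, and in series 0020 the single Ahr-/- library held 23.0 CPM and the 2 Ahr+/+ libraries 57.2 and 69.4 CPM. With hk S.E. at 3 h the 4 Ahr-/- libraries of series 0015 held 497 to 540 CPM and the 2 Ahr+/+ libraries 668 and 982 CPM. At 20 h without hk S.E. the 1 Ahr+/+ library of series 0020 held 42.3 CPM and the 4 Ahr-/- libraries 14.2 to 20.0 CPM. Il1rn was thus lower in Ahr-/- libraries without overlap within each of these series. With the series as a term in the model the log2 fold changes were -1.25 (adjusted p = 0.0036) and -1.62 (adjusted p = 0.00222) without hk S.E. at 3 h and 20 h, and -0.83 (adjusted p = 0.057) with hk S.E. at 3 h.

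With hk S.E. at 20 h the ligand genes Il1a and Il1b were higher and the antagonist genes Il1rn, Il18bp and Il1r2 lower in Ahr-/- BMMs. Il1a stood at 2456, 2292, 1540 and 2390 CPM in Ahr-/- and at 813, 697, 455 and 679 CPM in Ahr+/+ libraries, a log2 fold change of 1.71 ± 0.21, or 3.28-fold (adjusted p = 9.46e-09). Il1b stood at 6636, 6134, 2356 and 3287 CPM against 1610, 1988, 1635 and 1681 CPM, 1.41 ± 0.27 on the log2 scale or 2.66-fold (adjusted p = 6.64e-05). Neither gene's groups overlapped, although the lowest Ahr-/- library of Il1b was far closer to the Ahr+/+ range than the other Ahr-/- libraries were. The other ligand genes did not pass the threshold, with -0.51 ± 0.17 for Il18 (adjusted p = 0.022) and -0.66 ± 0.25 for Il36g (adjusted p = 0.0473). Il18 did pass in edgeR without replicate 3 of Ahr-/- BMMs (-0.68, adjusted p = 0.00344).

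Il1rn stood at 507, 427, 885 and 833 CPM in Ahr-/- against 1762, 1793, 903 and 1371 CPM in Ahr+/+ libraries, a log2 fold change of -1.14 ± 0.25, or 2.2-fold lower (adjusted p = 0.000723). The groups did not overlap, but the highest Ahr-/- library lay close to the lowest Ahr+/+ library. Il18bp stood at 26.7, 25.5, 43.2 and 44.4 CPM against 84.1, 82.6, 51.1 and 71.1 CPM, -1.04 ± 0.19 on the log2 scale or 2.06-fold lower (adjusted p = 5.47e-05). Il1r2, with 3 to 10 counts in Ahr-/- and 13 to 58 in Ahr+/+ libraries, stood at 0.19, 0.112, 0.294 and 0.184 against 0.584, 0.934, 0.66 and 1.24 CPM, -2.14 ± 0.45 on the log2 scale (adjusted p = 0.000337). Il1rap, the accessory chain gene, was higher, at 17.4, 16.7, 20.9 and 20.8 CPM against 12, 15.1, 15 and 10.5 CPM, 0.54 ± 0.16 on the log2 scale (adjusted p = 0.00948), a call that was lost in 5 of 8 fits that left out a library, with values from 0.44 to 0.61. In total 6 of the 8 genes passed here, where 12.5% of all genes did.

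Genotype and identifier series cannot be told apart with hk S.E. at 20 h. A fit with the series as a term, which takes its size from the other groups, gave 1.31 for Il1a (adjusted p = 0.0351), 1.34 for Il1b (adjusted p = 0.0228), -1.57 for Il1rn (adjusted p = 0.00145), -1.02 for Il18bp (adjusted p = 0.0108), -2.26 for Il1r2 (adjusted p = 0.0367) and 0.18 for Il1rap (adjusted p = 0.68). Summed dendritic cell markers also moved with genotype, from 20.5 to 39.9 CPM in Ahr+/+ and from 3.9 to 8.65 CPM in Ahr-/- libraries with hk S.E. at 20 h, and from 0.854 to 1.38 and from 0.253 to 0.487 CPM in unactivated BMMs at 3 h. Of 7 such markers 3 were tested, and with hk S.E. at 20 h all 3 were lower in Ahr-/- BMMs, at -1.99 for Ccr7, -2.92 for Flt3 and -2.56 for Zbtb46 on the log2 scale, as they were after BaP and after I3C. Most of the sum was Ccr7, while Cd209a, Xcr1 and Siglech were at 0 in 63, 51 and 53 of the 64 libraries. Of 5 B cell markers, which summed to 0.362 to 6.27 CPM over all libraries, Cd79b alone was tested, and it was higher in Ahr-/- BMMs with hk S.E. at 20 h (0.94). Of 5 fibroblast markers, which summed to 0.0736 to 8.35 CPM, 3 were tested, and their median genotype difference lay between 1.68 and 3.48 on the log2 scale in the 8 conditions, although the only one called was Dcn, lower in Ahr-/- BMMs at 20 h after BaP (-1.08) and after I3C (-1.73). Of 9 macrophage markers, 3 were lower and 0 higher in Ahr-/- BMMs with hk S.E. at 20 h, where 12.5% of all genes passed. After BaP 3 were lower and 1 higher, beside 23.3% of all genes, and after I3C 3 were lower and 0 higher, beside 15.6%. The part of all these markers in the genotype differences was not tested.

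**Figure D2:**
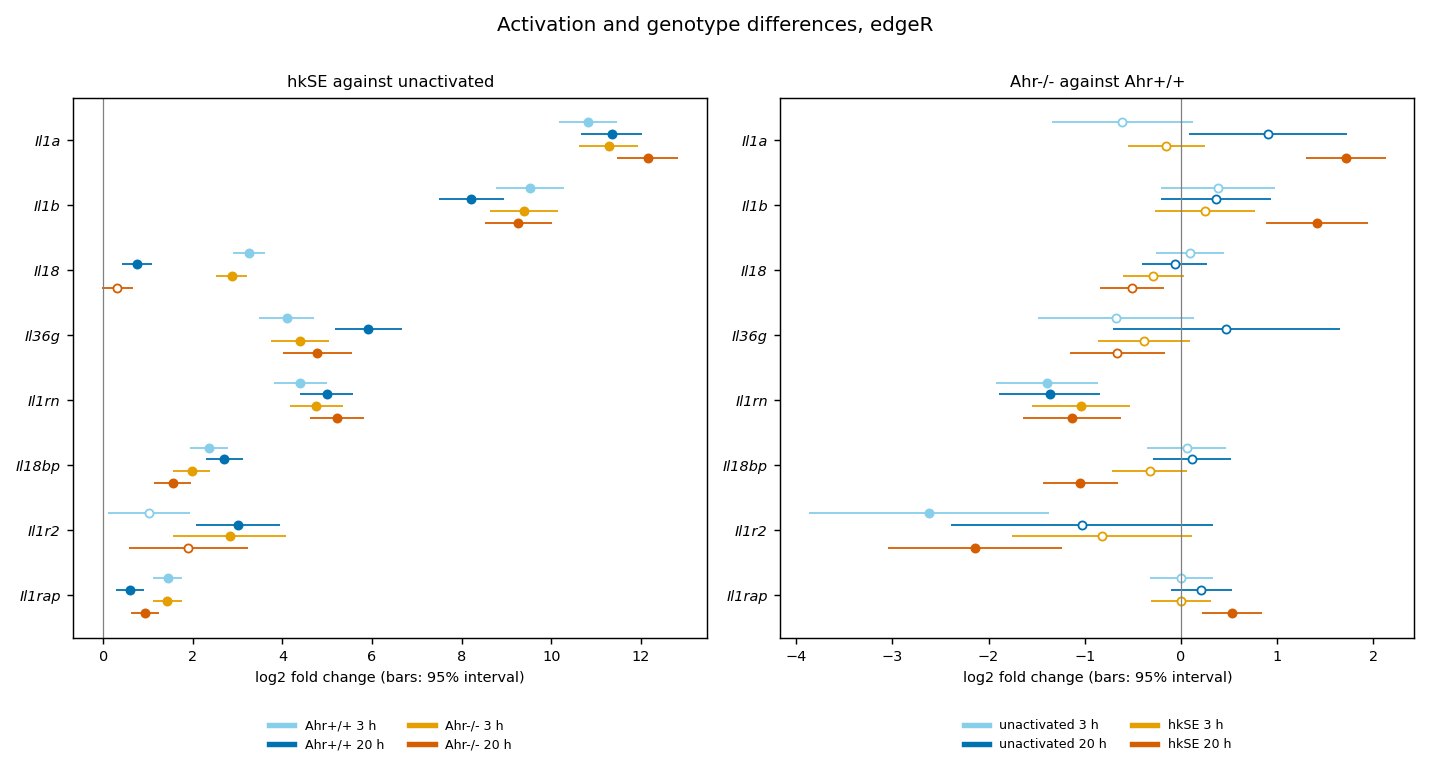
Log2 fold change of each gene (x axis) from edgeR with its 95% interval as a bar, for hk S.E. against unactivated BMMs on the left and Ahr-/- against Ahr+/+ BMMs on the right, coloured by genotype or activation and time, with filled points where the adjusted p was under 0.01. On the right Il1rn is filled and below 0 in all 4 comparisons, from -1.39 to -1.04, and Il1a and Il1b are filled and above 0 with hk S.E. at 20 h alone.

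Groups pretreated with BaP or I3C gave the same comparison in other libraries, in comparisons that were added after the DMSO values had been seen. The methods give 4 mice per genotype, so these libraries may come from the same mice as those after DMSO. They do not count as further animals. At 20 h these libraries were in the same 2 identifier series as after DMSO, while at 3 h series 0015 held both genotypes. Within it, after BaP, Il1rn ranged from 741 to 1648 CPM in Ahr+/+ and from 465 to 485 CPM in Ahr-/- libraries. After I3C these ranges were 682 to 1221 and 476 to 537 CPM. After BaP, 7 of the 8 genes passed at 20 h, beside 23.3% of all genes, with log2 fold changes of 1.90 ± 0.21 for Il1a, 1.54 ± 0.27 for Il1b, -1.54 ± 0.26 for Il1rn, -1.58 ± 0.20 for Il18bp and -3.48 ± 0.47 for Il1r2. Il18 (-0.98 ± 0.17) and Il36g (-0.92 ± 0.24) were lower in Ahr-/- BMMs there too, and Il36g overlapped between the groups. After I3C, 7 passed beside 15.6% of all genes, with 1.17 ± 0.20 for Il1a, 1.17 ± 0.26 for Il1b, -1.37 ± 0.26 for Il1rn, -1.24 ± 0.19 for Il18bp and -3.86 ± 0.52 for Il1r2, and Il1b overlapped between the groups. At 3 h Il1rn and Il1r2 passed after BaP, at -1.27 ± 0.26 and -2.10 ± 0.50, beside 4.88% of all genes, and Il1rn passed after I3C, at -1.15 ± 0.25, beside 2.85%. Leaving out 1 library ended the call of Il1r2 after BaP in 4 fits (without replicate 1, 2 or 4 of Ahr+/+ or 2 of Ahr-/- BMMs, -2.06 to -1.79). It ended that of Il1rn after I3C in 3 fits (without replicate 1 or 2 of Ahr+/+ or 2 of Ahr-/- BMMs, -1.12 to -0.96) and that of Il1rn after BaP in 1, without replicate 2 of Ahr+/+ BMMs (-1.04). At 20 h the Il36g call after BaP was lost without replicate 1 of Ahr+/+ (-0.83) or replicate 1 (-0.80) or 2 (-0.87) of Ahr-/- BMMs. The Il1b call after I3C at 20 h was lost without replicate 1 of Ahr-/- BMMs (0.88). Il1rap passed after BaP at 20 h without replicate 1 of Ahr-/- BMMs (0.55). With the series as a term Il36g turned to 0.13 after BaP and was -0.07 after I3C at 20 h, and Il1rn was -1.97 and -1.80.

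Whether the genotype difference itself changed was tested directly. The difference with hk S.E. was larger at 20 h than at 3 h for Il1a, by 1.87 ± 0.29 on the log2 scale (adjusted p = 1.11e-05), beside 6.09% of all genes. Il1b gave 1.16 ± 0.37 (adjusted p = 0.0276) and Il1rn -0.10 ± 0.36 (adjusted p = 0.907). Il1b did pass in edgeR without replicate 3 of Ahr-/- BMMs at 20 h (1.38, adjusted p = 0.00652). With the replicate number as a block, this change with time passed for 3 genes, Il1a, Il1b and Il18bp. The labels do not tie these numbers to mice. With the series as a term the Il1a value was 1.44 (adjusted p = 0.0605). The hk S.E. effect at 20 h was smaller in Ahr-/- than in Ahr+/+ BMMs for Il18bp, by -1.16 ± 0.28 (adjusted p = 0.0039), beside 4.41% of all genes, and leaving out 1 library ended that call in 7 fits, with values from -1.30 to -1.03. For Il1b the same difference was 1.05 ± 0.39 (adjusted p = 0.0782) and for Il1rn 0.23 ± 0.36 (adjusted p = 0.807). At 3 h 0 of the 8 genes passed in edgeR and in DESeq2, with 1 of them, Il1r2, at an unadjusted p under 0.05, beside 0.0138% of all genes. For the difference between times without hk S.E. both tools passed 0 of the 8 genes and 0% of all genes, with 1 of the 8, Il1a, at an unadjusted p under 0.05.

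Among Ahr-/- libraries with hk S.E. at 20 h the values separated by replicate number, whichever compound the cells had received. The 6 libraries numbered 1 or 2 held 5622 to 6636 CPM of Il1b and 413 to 536 CPM of Il1rn. The 6 numbered 3 or 4 held 2002 to 3817 CPM of Il1b and 736 to 885 CPM of Il1rn. Il18bp followed Il1rn, at 20.8 to 26.8 CPM in the former and 38.7 to 44.5 CPM in the latter, while the ranges of Il1a overlapped. The libraries with the most Il1b were thus those with the least Il1rn and Il18bp. The labels do not say what a replicate number stands for.

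**Figure D3:**
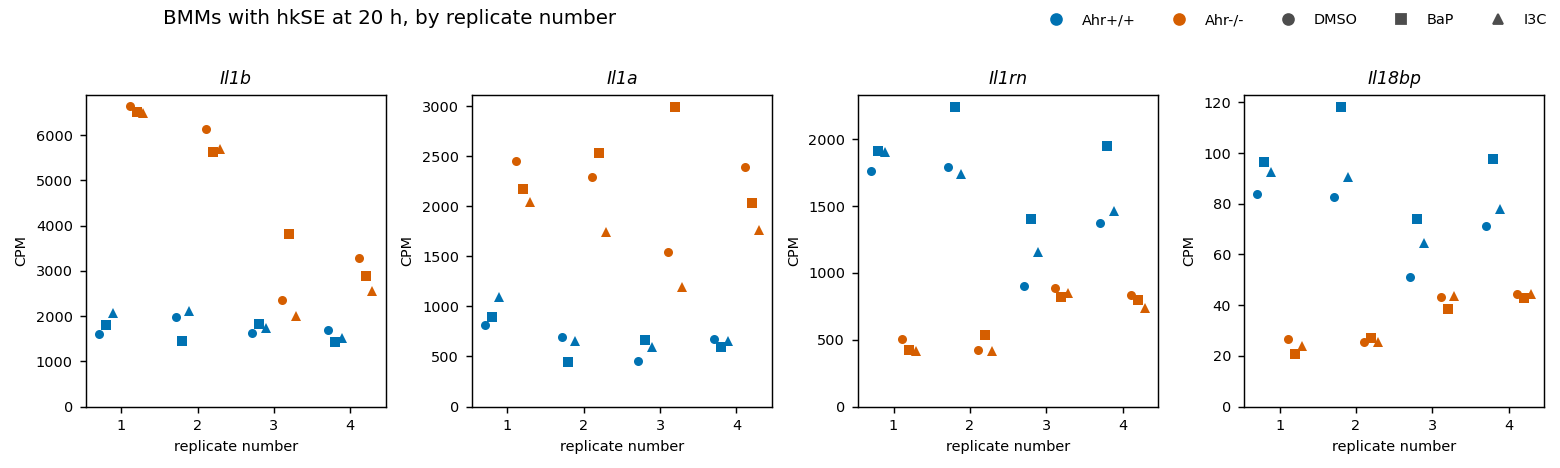
CPM of Il1b, Il1a, Il1rn and Il18bp (y axes, linear from 0) in the 24 BMM libraries with hk S.E. at 20 h, by replicate number (x axis), coloured by genotype and with a symbol for each compound. In Ahr-/- libraries numbers 1 and 2 hold 5622 to 6636 CPM of Il1b and at most 536 CPM of Il1rn, and numbers 3 and 4 at most 3817 CPM of Il1b and at least 736 CPM of Il1rn.

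The balance of antagonist to ligand RNA was read as a log2 ratio of CPM within each library. CPM are not corrected for length, so a ratio of 0 is not an equal level per length, while differences of a ratio between groups do not depend on length. Without hk S.E. the ratio of Il1rn to Il1b in Ahr+/+ BMMs was 3.12 ± 0.39 (SD, n = 4) at 3 h and 3.03 ± 0.41 at 20 h, and in Ahr-/- BMMs 1.37 ± 0.47 and 1.24 ± 0.36. With hk S.E. it was lower, at -2.02 ± 0.53 in Ahr+/+ BMMs and -3.23 ± 0.31 in those without AhR at 3 h. At 20 h with hk S.E. it stood at -0.29 ± 0.42 in Ahr+/+ and at -2.74 ± 1.23 in Ahr-/- BMMs. On the scale of CPM per kilobase of exon, mean Il1rn at 20 h was 8.32 against 2.99 for Il1b in unactivated Ahr+/+ BMMs, 3.22 against 3.92 in unactivated Ahr-/- BMMs, and 263 against 906 in Ahr+/+ BMMs with hk S.E. The genotype difference was -1.75 and -1.79 without and -1.21 and -2.44 with hk S.E. at 3 h and 20 h, and the groups did not overlap in any of these 4 comparisons. For Il1rn to Il1a with hk S.E. at 20 h it was -2.88, from 1.12 ± 0.17 in Ahr+/+ to -1.76 ± 0.75 in Ahr-/- BMMs. In exact permutation tests, two-sided, with 4 libraries against 4, the smallest p the design allows is 0.0286, and 21 of 48 such tests reached it. None passed after adjustment, where those 21 had 0.0653. An adjusted p under 0.05 would have needed more of the 48 tests at that smallest p. The lack of calls is therefore no sign that the ratios did not differ.

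The ratio of Il18bp to Il18 took another course. It was 1.19 ± 0.18 in unactivated Ahr+/+ BMMs at 3 h, 0.28 ± 0.12 with hk S.E. at 3 h and 2.67 ± 0.22 with hk S.E. at 20 h. In Ahr-/- BMMs the same groups stood at 1.14 ± 0.42, 0.25 ± 0.24 and 2.14 ± 0.29. The ratio was thus highest at the late time after activation in both genotypes. Per kilobase of exon, mean Il18bp in Ahr+/+ BMMs was 4.15 against 5.37 CPM for Il18 in the first of these groups and 23.9 against 10.8 CPM in the last.

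**Figure D4:**
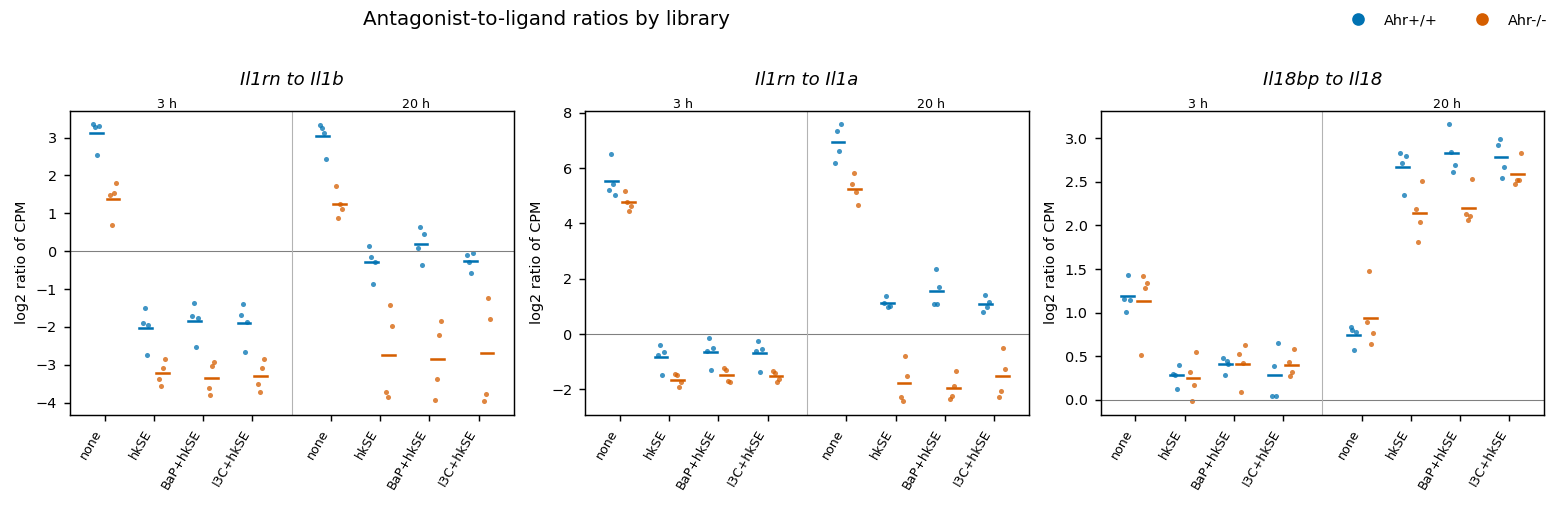
Log2 ratio of CPM (y axis) of Il1rn to Il1b, Il1rn to Il1a and Il18bp to Il18 in each of the 64 libraries, at 3 h on the left and 20 h on the right of each panel, with bars for group means of 4. Il1rn to Il1b lies above 0 in unactivated and below 0 in all activated Ahr-/- libraries, and at 20 h the activated Ahr+/+ groups have means between -0.29 and 0.20. A value of 0 is an equal CPM, not an equal level per length.

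The ligands themselves moved none of the 8 genes past the threshold. BaP and I3C act on the same receptor and differ in structure, BaP being a polycyclic aromatic hydrocarbon and I3C a small indole, but they were given at different doses, 1 and 10 µM, so their values are set side by side. In Ahr+/+ BMMs edgeR passed 0 of the 8 genes with BaP or I3C at either time, where 0.0482% and 0.234% of all genes passed with BaP at 3 h and 20 h and 0.131% and 0.509% with I3C. In Ahr-/- BMMs it also passed 0, beside 0.0275% and 0.0138% with BaP and 0.0206% and 0.206% with I3C. At an unadjusted p under 0.05 stood Il18bp with BaP at 20 h in Ahr+/+ BMMs, Il36g with I3C at 20 h in Ahr+/+ BMMs and Il18 with I3C at 20 h in Ahr-/- BMMs. DESeq2 passed none of the 8 genes in any of these comparisons either.

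The intervals show what size of change these libraries could still hide. Il18bp stood at 96.4, 118, 74.1 and 97.7 CPM after BaP at 20 h in Ahr+/+ BMMs, against the 51.1 to 84.1 CPM of DMSO libraries, a log2 fold change of 0.42 with a 95% interval of 0.04 to 0.80 (adjusted p = 0.416). Il1rn, at 1910, 2242, 1404 and 1951 CPM, gave 0.37 with an interval of -0.14 to 0.87. Both groups overlapped their DMSO controls. In both genes, though, each BaP library was above the DMSO library of the same replicate number. The labels do not tie these numbers to mice, and a fit with the number as a block also passed 0 of the 8 genes. Il36g after I3C at 20 h gave 0.54 with an interval of 0.06 to 1.02 (adjusted p = 0.695). In Ahr-/- BMMs Il18 after I3C at 20 h gave -0.47 with an interval of -0.82 to -0.13 (adjusted p = 0.462). The ligand effect was not shown to differ between genotypes for any of the 8 genes, since 0 passed, 0.0138% of all genes passed for BaP at 3 h and none for BaP at 20 h or for I3C. At an unadjusted p under 0.05 stood Il18 (-0.55) and Il1r2 (-1.72), both for I3C at 20 h. These comparisons share the DMSO groups.

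**Figure D5:**
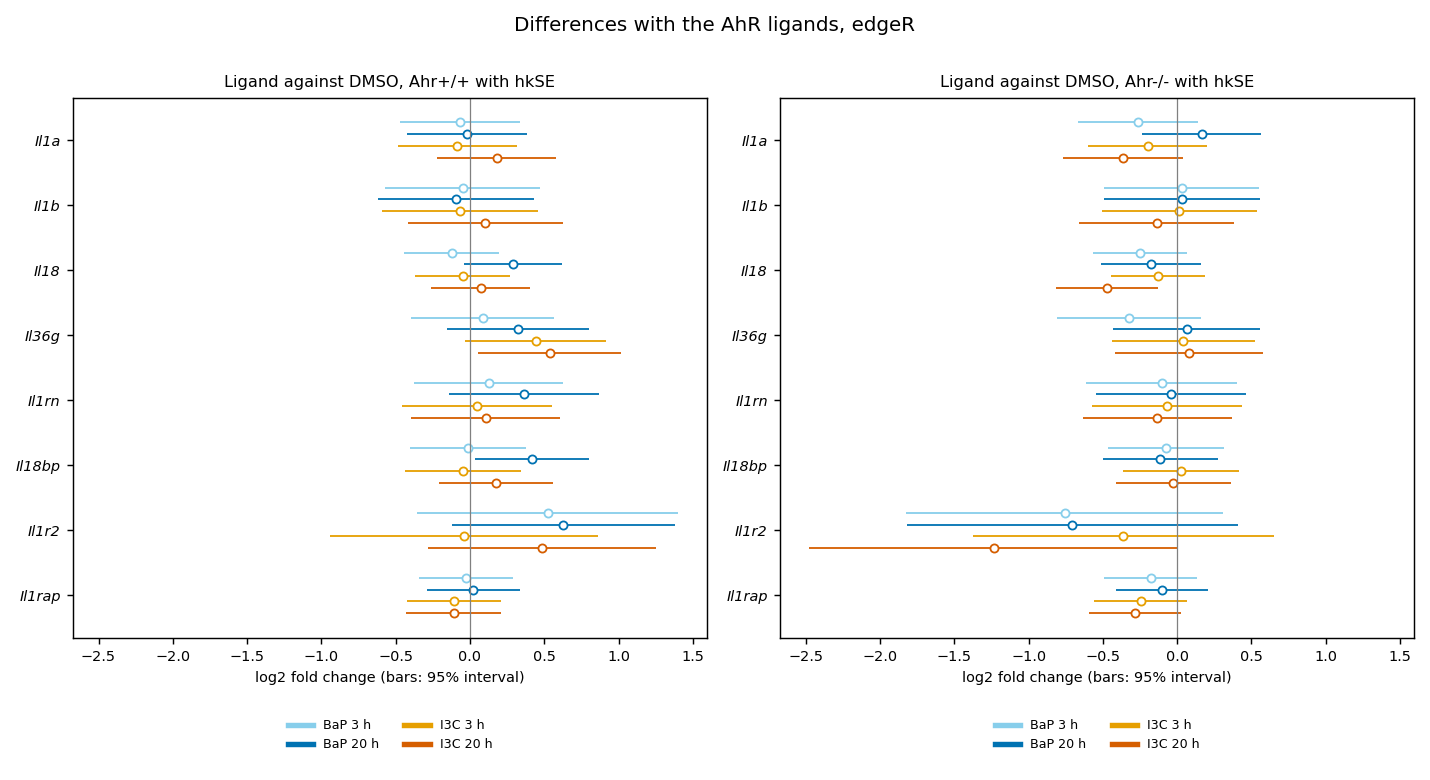
Log2 fold change of each gene (x axis) from edgeR with its 95% interval as a bar, for BaP and I3C against DMSO with hk S.E. at 3 h and 20 h, in Ahr+/+ BMMs on the left and Ahr-/- BMMs on the right. All points are open, which marks an adjusted p of 0.01 or more, and intervals leave 0 for Il18bp with BaP and Il36g with I3C at 20 h on the left and for Il18 with I3C at 20 h on the right.

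Set directly against each other, the groups pretreated with BaP and with I3C differed in none of the 8 genes, beside 0.110% and 0.282% of all genes in Ahr+/+ BMMs at 3 h and 20 h and 0.0206% and 0.186% in Ahr-/- BMMs. The only gene of the 8 at an unadjusted p under 0.05 was Il1a in Ahr-/- BMMs at 20 h, at 0.53 with an interval of 0.13 to 0.93 (adjusted p = 0.782). DESeq2 also passed none. The doses differed, so this is not a comparison of the structures.

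Over the 16 groups, each gene had its highest mean level in an activated group. Il1a was highest in Ahr-/- BMMs after BaP at 20 h and Il1b in Ahr-/- BMMs after BaP at 3 h. Il18 was highest in Ahr+/+ BMMs after DMSO at 3 h, and Il36g in Ahr+/+ BMMs after I3C at 3 h. Il1rn, Il18bp and Il1r2 were all highest in Ahr+/+ BMMs after BaP at 20 h, and Il1rap in Ahr-/- BMMs after DMSO at 3 h. Most neighbours in these orders overlapped. Of the 15 steps from one group to the next, 2 were free of overlap for Il1a, Il1b, Il36g and Il1rn, 1 for Il18 and Il18bp and 0 for Il1r2 and Il1rap. For Il1rn the lower of these steps divided the unactivated Ahr-/- groups from the unactivated Ahr+/+ groups.

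Genes whose group means ran most like those of the 8 were named by Pearson's r over the 16 groups, which share libraries and are led by activation, so the values are descriptive. For Il1a they were Dusp16 (0.997), Psma6 (0.996) and Il1b (0.996). For Il1b they were Psma6 (0.997), Slco3a1 (0.996) and Il1a (0.996). For Il18 they were Nfxl1 (0.996), Lhx2 (0.994) and Gm12185 (0.993), and for Il36g Txnl1 (0.994), Oasl2 (0.994) and Eif1a (0.992). For Il1rn they were the chemokine gene Ccl7 (0.992), Pi4k2b (0.986) and Cst7 (0.985). For Il18bp they were Ptch1 (0.991), Il36a (0.989) and Mdm2 (0.988), and for Il1rap Fmnl2 (0.991), Ywhae (0.987) and Cd2ap (0.985). Il1r2, with its low counts, had the weakest match, to Hat1 (0.934), Ly6a (0.933) and Zfp366 (0.932).

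The rest of the pathway was described from lists of genes around the 8. Of 15 genes of the inflammasome and of ligand processing, 8 rose and 4 fell with hk S.E. in Ahr+/+ BMMs at 3 h, and 10 rose and 4 fell at 20 h, where 56.6% and 58.6% of all genes passed and 24.2% and 29.9% rose. The same shares are the background for the other lists in this comparison. Nlrp3, the sensor of the inflammasome that serves IL-1β, rose by 4.23 ± 0.10 on the log2 scale at 3 h, Casp4 by 3.91 ± 0.18 and the DNA sensor Aim2 by 3.34 ± 0.12, while Nlrp1b fell by 4.55 at 20 h, when Casp4 was higher by 2.68 ± 0.17. Of 16 genes of signal transduction from the receptors 7 rose and 4 fell at 3 h and 9 rose and 2 fell at 20 h. Among these Peli1 gave 4.94 ± 0.20, the kinase gene Irak2 2.76 ± 0.07 and the adaptor gene Myd88 2.63 ± 0.08 at 3 h, and Irak3, an inhibitor of the same pathway, gave 3.45 ± 0.14 at 20 h, beside 3.02 ± 0.18 for Peli1 and 1.53 ± 0.07 for Irak2.

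Of 8 other receptor genes 5 were tested, and 2 rose and 1 fell in Ahr+/+ BMMs at 3 h and 2 rose and 3 fell at 20 h. Il18rap, the accessory chain of the IL-18 receptor, rose by 2.06 ± 0.26 on the log2 scale at 3 h, Il1rl2, the IL-36 receptor, by 0.80, and the inhibitory receptor gene Sigirr gave -1.18. At 20 h Il18rap stood at a mean of 0.0206 CPM with hk S.E. against 4.07 CPM without it, and Il1rl1, the IL-33 receptor, at 0.00532 against 1.66 CPM. Sigirr fell by 3.78 on the log2 scale at 20 h. Of 5 other ligand and antagonist genes Il36a alone passed the filter on low counts, and it went from 0 CPM in all unactivated Ahr+/+ libraries to a mean of 1.70 CPM with hk S.E. at 3 h.

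Between the genotypes few of these genes differed before 20 h of activation, where 1.21% and 0.702% of all genes passed without hk S.E. at 3 h and 20 h and 2.83% with it at 3 h. Without hk S.E. Txnip was higher in Ahr-/- BMMs at 3 h (0.42 ± 0.08) and 0 genes of the 4 lists passed at 20 h. With hk S.E. at 3 h Ikbkb was higher (0.38 ± 0.07), and Il18rap (-1.20 ± 0.25) and Casp8 (-0.36 ± 0.08) were lower. With hk S.E. at 20 h, where 12.5% of all genes passed, 2 of the 15 inflammasome genes were higher and 3 lower in Ahr-/- BMMs, with 0.69 ± 0.17 for Nlrp1a, -0.62 ± 0.14 for Naip5 and -0.50 ± 0.10 for Gsdmd, the pore through which IL-1β leaves the cell. Ikbkb was higher there as well (0.35 ± 0.07). The receptor gene Il1r1 was lower there, at -1.11 ± 0.28 and a mean of 1.05 against 2.28 CPM, and Il36a was at a mean of 0.472 against 1.37 CPM, a log2 fold change of -1.50 ± 0.29. None of the genes of these lists passed with BaP or I3C in Ahr+/+ BMMs.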

How the data were processed

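RNA of 64 BMM libraries was sequenced, 4 in each of 16 groups taken from the sample labels. The deposited counts are raw read pairs per gene, made by the authors with HISAT2 2.1.0 on mm10 and HTSeq 0.9.1 with GENCODE M22, counted by strand. A table of log2 values was also deposited by the authors, the variance-stabilizing transformation (VST) of DESeq2 of these counts, and served in 1 alternative. In every library 5 entries that name no gene, 19.2% to 25.1% of read pairs, were left out.

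Counts were fitted in R 4.3.3 with edgeR 4.0.16, with TMM factors, filterByExpr (min.count of 10, 14537 genes kept, all 8 genes among them), 16 group means and quasi-likelihood tests with Benjamini-Hochberg adjustment over the genes tested in each comparison, called at 0.01. Errors are standard errors of the fit with 48 residual degrees of freedom, and CPM are TMM-scaled. DESeq2 1.42.0 and limma 3.58.1 were alternatives. Lengths and positions came from GENCODE M21 on GRCm38 and sequences from RefSeq on GRCm38.p6, in which all 8 genes were matched. Antisense or opposite-strand genes overlap Il1a, Il1b, Il18, Il18bp, Il1r2 and Il1rap, and the counting by strand keeps these apart. A gene of the same strand, Gm37347, overlaps Il1r2.

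The 8 genes and the lists were chosen with earlier results of these data known. In other lists the up to 3 genes with the largest called change were named, and for likeness the 3 genes with the highest Pearson r. Tested on simulated data for the genotype difference with hk S.E. at 20 h over 14406 genes, 24 of 50 genes changed 1.5-fold, 48 of 50 changed 2-fold, 49 of 50 changed 3-fold and 50 of 50 changed 4-fold were called, with 1 false call. The changed genes were drawn among genes with high mean counts, unlike Il1r2. Counts were drawn independently, without effects of replicate number or identifier series. Each gene was given the spread usual for its count level, not its own spread. These results do not cover genes of low count, genes with more spread than is usual for their level, or such effects. A direction counted as reversed where the sign changed and either fit had an unadjusted p under 0.05.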

Additional observations from a re-analysis of the deposited data

Results flagged for a closer look

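In 8 of 128 sets of 4 libraries, 1 gene in 1 group each, a library stood apart from the others by Dixon's criterion at its 95% critical value, and chance flags about 1 in 20 sets. Il1a was at 1471 CPM in replicate 4 of Ahr+/+ BMMs after BaP with hk S.E. at 3 h, where the others held 1807 to 1811 CPM. It was at 1098 CPM in replicate 1 of Ahr+/+ BMMs after I3C with hk S.E. at 20 h (others 591 to 656 CPM) and at 1540 CPM in replicate 3 of Ahr-/- BMMs after DMSO with hk S.E. at 20 h (others 2292 to 2456 CPM). Il18 was at 7.7 CPM in replicate 2 of unactivated Ahr+/+ BMMs at 20 h (others 6.05 to 6.28 CPM). Il18bp was at 39.1 CPM in replicate 2 of Ahr-/- BMMs after BaP with hk S.E. at 3 h (others 51.0 to 53.3 CPM) and at 15.6 CPM in replicate 2 of unactivated Ahr-/- BMMs at 20 h (others 10.7 to 11.2 CPM). Il1r2 was at 0.292 CPM in replicate 1 of unactivated Ahr+/+ BMMs at 3 h (others 0.427 to 0.444 CPM) and at 1.32 CPM in replicate 3 of Ahr+/+ BMMs with hk S.E. at 3 h (others 0.622 to 0.703 CPM).

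Of 80 tests of a difference between effects, 8 passed the threshold of 0.01, and they come from comparisons that share groups. Between genotypes the hk S.E. effect at 20 h differed for Il18bp (-1.16, adjusted p = 0.0039). Between 20 h and 3 h it differed in Ahr+/+ BMMs for Il1b (-1.31), Il18 (-2.49), Il36g (1.82), Il1r2 (1.99) and Il1rap (-0.84) and in Ahr-/- BMMs for Il18 (-2.55). The genotype difference with hk S.E. changed between 3 h and 20 h for Il1a (1.87, adjusted p = 1.11e-05).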

How the results depend on the processing

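Among the 8 genes, calls for activation numbered 29 in the main analysis and 27 to 30 under the alternatives, and those for time 11 and 8 to 14. Of the 10 genotype calls after DMSO, 3 were left with the identifier series as a covariate and 3 in fits of the compared groups alone, and 8 to 10 under RLE size factors, other filters, DESeq2 and limma. Genotype calls after a ligand numbered 17 and 13 to 19. Calls for BaP, I3C and their differences numbered 0 under every alternative. Calls of ratios also numbered 0, where the smallest p the design allows left little room for a call. The 1 call for the difference of the hk S.E. effect between genotypes became 0 in the fit of the groups alone and 2 by limma, and 0 to 1 when single libraries were left out. The 6 calls for its change with time became 5 to 6, and 3 to 6 with single libraries left out, the 3 without replicate 4 of unactivated Ahr+/+ BMMs at 20 h. The 1 call for the change of the genotype difference with time became 0 with the series as a covariate, and 1 to 2 with single libraries left out. Leaving out single libraries gave 29 to 30 calls for activation, 8 to 10 for genotype after DMSO, 15 to 17 after a ligand and 9 to 12 for time. After DMSO, Il1a, Il1b, Il1rn, Il18bp and Il1r2 kept their genotype call with hk S.E. at 20 h in each of those fits. After I3C Il1b lost it without replicate 1 of Ahr-/- BMMs.

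Directions were reversed for Il36g between genotypes with hk S.E. at 20 h when the series was a covariate (0.39 after DMSO and 0.13 after BaP), and on the authors' log2 values for the change of the hk S.E. effect with time, in Il1a (-1.03) and Il36g (-0.22) in Ahr+/+ BMMs and in Il36g (-0.65) in Ahr-/- BMMs. The cause was not tested. RLE size factors shifted the median of all genes by over 0.1 only for that change in Ahr-/- BMMs (-0.106).

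Same-numbered libraries deviated together with a median correlation of 0.333 in Ahr-/- (104 of 112 pairs above 0.1) and 0.0962 in Ahr+/+ BMMs (54 of 112). Not every pair was above 0.1 and the labels do not tie numbers to mice, so the numbers were not taken as pairs. In a fit that took the replicate number as a block, the change of the genotype difference with time gave 3 calls, Il1a, Il1b (1.09) and Il18bp (-0.75). The block added Il1r2 for activation in Ahr-/- BMMs at 20 h and, for time, Il1rn (0.47) and Il18bp (-0.60) with hk S.E. in Ahr+/+ and Ahr-/- BMMs and Il36g (-1.81) in unactivated Ahr-/- BMMs, and it changed no other call. Comparisons between genotypes at 1 time cannot carry it. For the ratios, leaving out a library was run for the size of the difference alone and without a test, so it gave no calls. Counts of 0 to 26 for Il1r2 and Il36g in unactivated libraries limit what can be seen of these genes.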
